A study of Mus musculus with 2 samples.

Results

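Among the sorted nuclei of injured mouse cortex, 573 of 8171 labelled nuclei (7.01%, exact binomial 95% interval 6.47 to 7.59) carried the label of a cortical neuron but had no entry in the column of the deposited table that names the neuron subset. These neuron-labelled nuclei outside the neuron subset were chosen by those 2 columns alone, as nuclei with no subset label whose edited label was none of Micro-PVM, Astro, Oligo, Endo, SMC-Peri, VLMC or Unknown. The male library held 421 of them among 4003 labelled nuclei (10.5%, 9.58 to 11.5) and the female library held 152 among 4168 (3.65%, 3.10 to 4.26). Relative to their total of UMIs (unique molecular identifiers, 1 per captured RNA molecule), they held less RNA of 20 general neuronal genes than neuron-subset nuclei, and more RNA of 20 microglial genes. Against nuclei labelled Micro-PVM the order was the reverse. They held 1.75 (male) and 2.20 (female) times the Micro-PVM level of the neuronal genes, and 0.647 and 0.745 times that of the microglial genes. Labels and clusters came from the same counts, so the choice of these nuclei was not independent of those genes. They are therefore called here by the rule that chose them and given no cell type name.

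Both libraries came from mice that carried Atf3-CreER and a Sun1-sfGFP reporter, heterozygous at each allele. All animals had a closed-skull mild traumatic brain injury (mTBI) and were over 7 weeks old. Tamoxifen was given at 4 and 5 days post injury (dpi), and the ipsilateral cortex was collected at 7 dpi. Each library pooled 4 animals of 1 sex, and nuclei positive for GFP and for the DNA dye DRAQ5 were sorted before droplet-based single-nucleus RNA sequencing. Recombination followed the Atf3 promoter in any cell type in which it was active, so the sort did not by itself select neurons. No library from uninjured cortex was analysed here. Sex, pool, sequencing depth and library could not be told apart, because each sex was 1 library. The second library has a label field reading male, but F stands in its title and in the deposited table, and its nuclei are referred to as female.

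Nuclei from tissue are loaded into droplets together with RNA that has leaked from broken cells. This free RNA is counted in droplets that hold no nucleus and adds to the counts of droplets that do. Label transfer assigns each nucleus the name of the reference cell type whose profile its counts resemble most, so a name is given also to nuclei with few counts. Microglia are the resident immune cells of the brain and multiply and change state around an injury, and Atf3 is a transcription factor that injured neurons and activated immune cells can switch on.

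The labelled nuclei held 10823188 UMIs (male) and 23127629 (female). The comparisons used 2580 neuron-subset nuclei (1378 male, 1202 female) and 4028 nuclei labelled Micro-PVM, for microglia and perivascular macrophages (1690 male, 2338 female). Barcodes of 1 to 50 UMIs that were not called as nuclei served as empty droplets, 404579 of them in male and 666646 in female data. Of these, 360027 and 519005 held exactly 1 UMI. Uncalled barcodes with over 100 and up to 500 UMIs, called the deeper uncalled barcodes, formed a separate peak of depth and were compared as well, 72068 (male) and 74614 (female) of them. One barcode occurred in both libraries, and none of the 573 nuclei had it.

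The label of a deep-layer projection neuron accounted for most of the 573 nuclei. L6 IT CTX, the name for intratelencephalic neurons of cortical layer 6, was given to 506 of them (88.3%), 372 (male) and 134 (female). L2/3 IT CTX-1 was given to 57 nuclei (42 male, 15 female), L2/3 IT CTX-2 to 9 (6 male, 3 female) and L6 CT CTX to 1 male nucleus. No label of an inhibitory neuron occurred among them. Read from the side of the label, 795 nuclei of the series were labelled L6 IT CTX, and 63.6% of these lay outside the neuron subset, 74.8% (male) and 45% (female).

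These nuclei shared no cluster of the authors with the neuron subset. Of 26 clusters, 12 held neuron-labelled nuclei outside the subset, 10 held neuron-subset nuclei and 0 held both. If the authors drew the subset as whole clusters, this split was fixed in advance. How the subset was drawn was not checked here. Clusters in which Micro-PVM was the most frequent label held 526 of the 573 nuclei (91.8%), 386 male and 140 female. Cluster 2 alone held 203 male and 127 female nuclei, which made up 60.1% of its 338 male and 30.5% of its 417 female nuclei, the rest being labelled Micro-PVM. The other Micro-PVM-led clusters held far more male than female nuclei of this kind, with 64 and 0 in cluster 0, 33 and 1 in cluster 1, 37 and 3 in cluster 9, and 36 and 8 in cluster 18. Clusters 15 and 21, led by the label SMC-Peri for smooth muscle cells and pericytes, held 41. The remaining 6 lay in clusters led by VLMC (3), Oligo (2) and Astro (1).

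**Figure D1:**
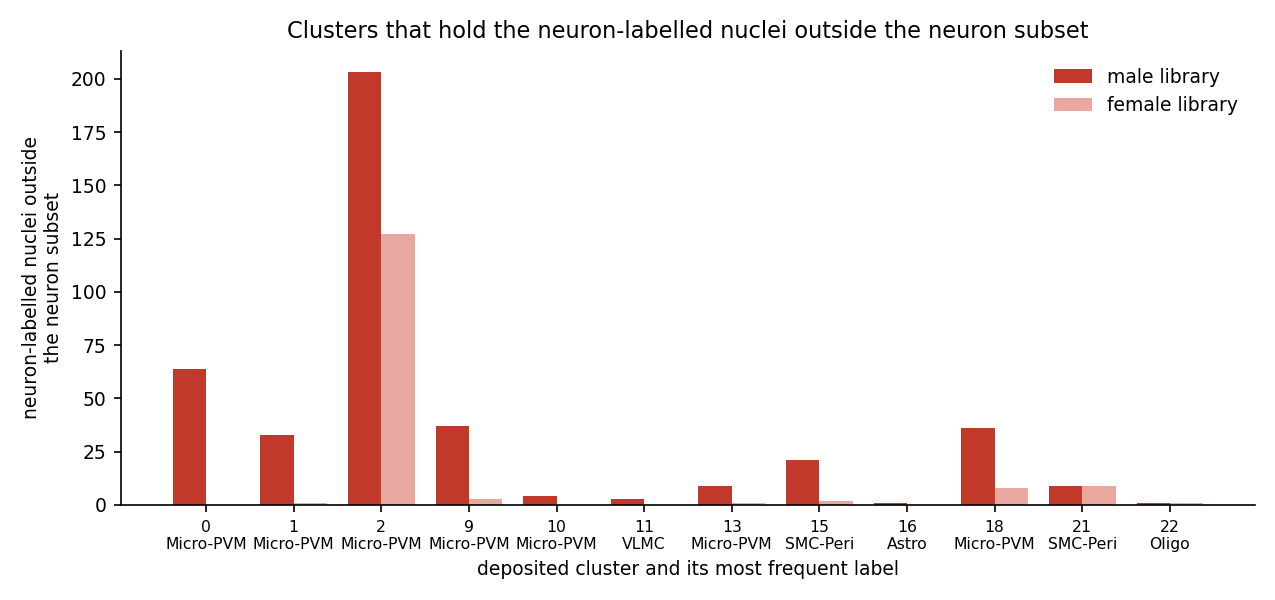
Number of neuron-labelled nuclei outside the neuron subset in each cluster that held any, in the male and the female library, with the cluster's most frequent label. The bars start at 0, and cluster 2 is the tallest in both libraries, with 203 male and 127 female nuclei.

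Few UMIs set these nuclei apart before any gene was considered. Their median depth was 681 UMIs (male, range 500 to 5877) and 911.5 (female, 517 to 4488), with medians of 478 and 557 genes. Neuron-subset nuclei had medians of 3591 and 8501.5 UMIs, and Micro-PVM nuclei had 1298.5 and 3012.5. In each library, the neuron-labelled nuclei outside the subset were therefore the shallowest of the 3 classes. The median deeper uncalled barcode held 209 UMIs (male) and 301 (female), equal to 30.7% and 33.0% of the median of the neuron-labelled nuclei.

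At the lowest depths these nuclei were a large part of all labelled nuclei. They made up 61.1% of male and 46.8% of female nuclei with 500 to 749 UMIs. Between 750 and 999 UMIs they made up 20.6% (male) and 69.2% (female), and between 1000 and 1499 UMIs 3.89% and 14.8%. Above that depth they were rare, with 2.04% and 2.51% between 1500 and 2499 UMIs, 0.128% and 0.705% between 2500 and 4999, and 0.172% of male nuclei from 5000 UMIs. No female nucleus from 5000 UMIs was one of them, and 0 of 1483 allows a share of up to 0.202% (3 nuclei). Intervals and limits of this kind cover counting error only.

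**Figure D2:**
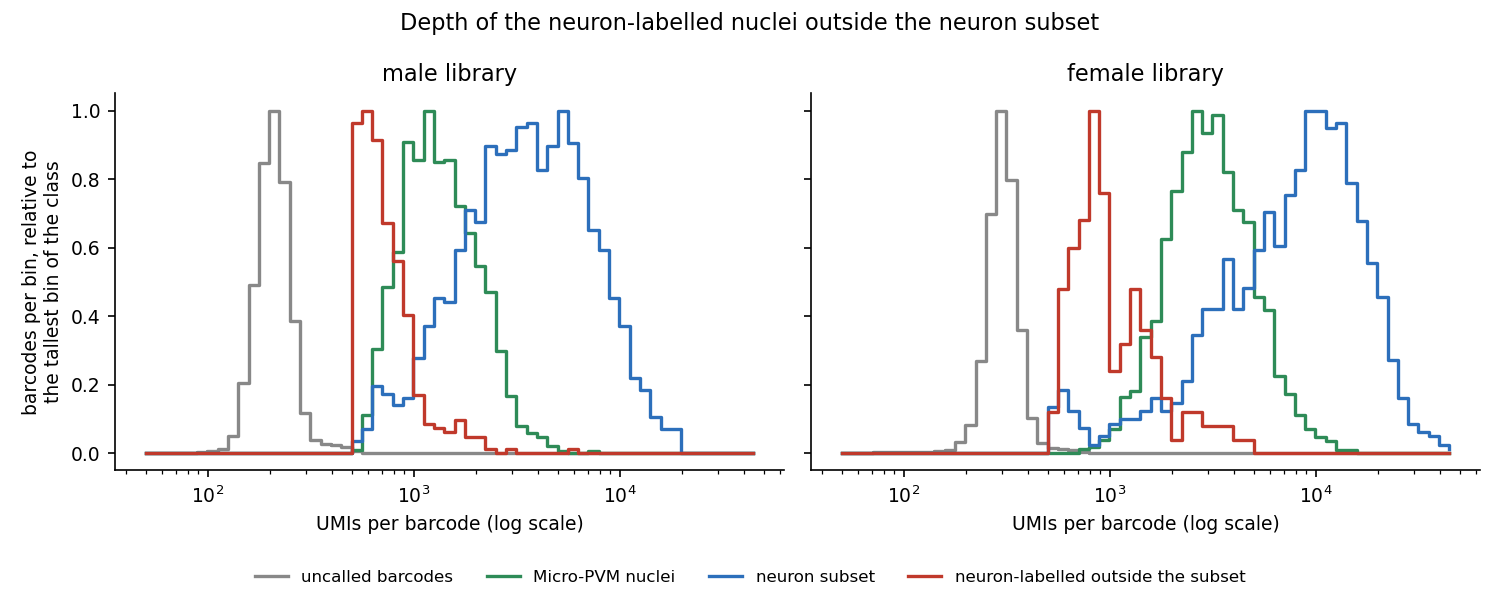
Distribution of UMIs per barcode (log axis), as barcodes per bin relative to the tallest bin of the class, in the male and the female library for neuron-labelled nuclei outside the neuron subset, neuron-subset nuclei, Micro-PVM nuclei and uncalled barcodes. The neuron-labelled nuclei outside the subset, with medians of 681 and 911.5 UMIs, lie between the uncalled barcodes and the Micro-PVM nuclei.

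The general neuronal genes were the first check of the label. The list held 20 genes of synapses, neuronal splicing, cytoskeleton and excitability, among them Snap25 (a SNARE protein of synaptic vesicle release), Rbfox1 (a neuronal splicing factor), Nrxn3 (a presynaptic adhesion protein) and Meg3 (a nuclear noncoding RNA abundant in neurons). The summed list reached 16016 CPM (UMIs scaled to a common total of 1e6) in male and 12925 CPM in female neuron-labelled nuclei outside the subset, a mean of 14471 ± 2185 (SD, n = 2 libraries). Neuron-subset nuclei held 68471 and 62792 CPM of the same genes. The neuron-labelled nuclei outside the subset thus reached 0.234 and 0.206 times the level of the neuron subset. Micro-PVM nuclei held 9136 and 5887 CPM, below the neuron-labelled nuclei outside the subset in both libraries. Deeper uncalled barcodes held 47623 and 41922 CPM, above them in both.

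The neuronal list was also counted in UMIs per barcode, which rose with depth in every class. A neuron-labelled nucleus outside the subset held on average 12.6 (male) and 15.4 (female) UMIs of the neuronal list. A Micro-PVM nucleus held 13.5 and 20.2, and a deeper uncalled barcode held 10.2 and 12.7. A neuron-subset nucleus held 304 and 601. Within the range of 500 to 749 UMIs, where all 3 classes of nuclei could be set side by side in the male library, neuron-labelled nuclei outside the subset held 11 UMIs of the list, Micro-PVM nuclei 9.79 and neuron-subset nuclei 31.6. Female nuclei in that range held 11.1 outside the subset and 24.5 in it. At 1000 to 1499 UMIs the neuron-labelled nuclei outside the subset held 13.7 (male) and 17.4 (female). Micro-PVM nuclei rose from 9.79 to 19.1 UMIs of the list between the shallowest and the deepest male bin of at least 20 nuclei, and from 14.0 to 27.2 between those of the female library.

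**Figure D3:**
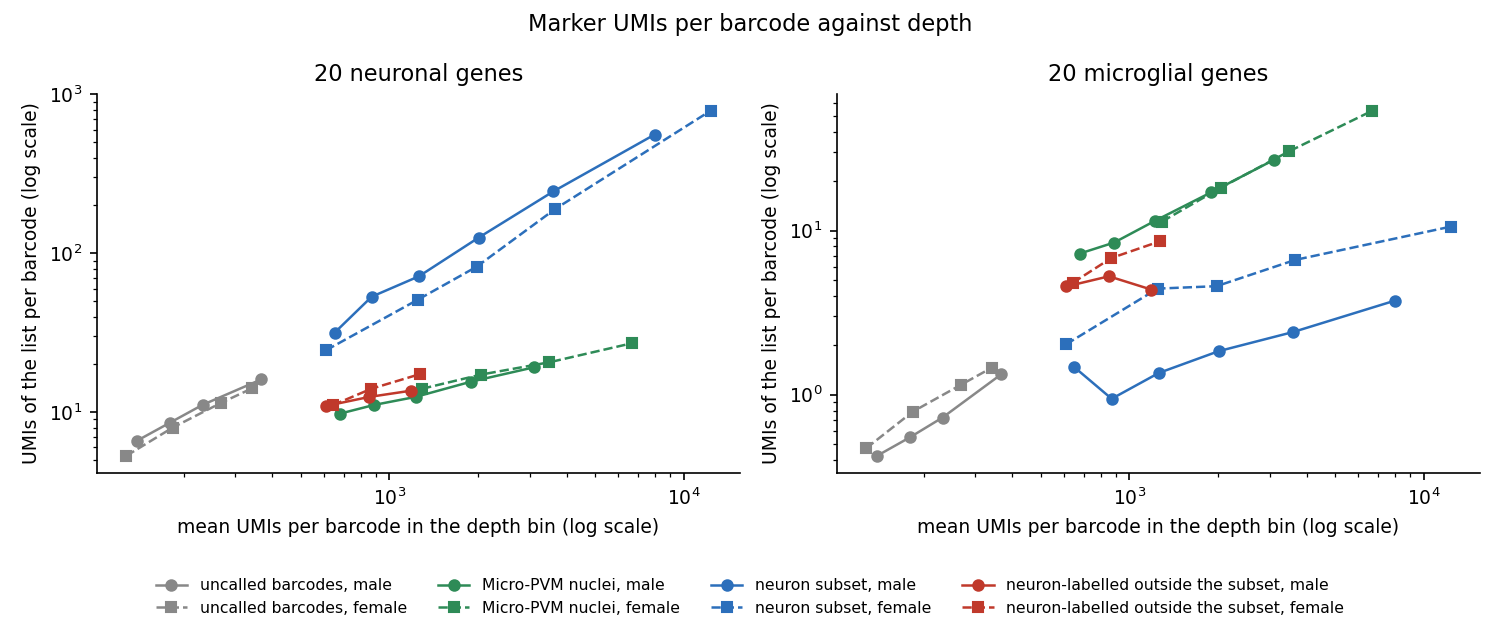
Mean UMIs per barcode of the neuronal list and of the microglial list against mean barcode depth in bins, both on log axes, by class and library, with uncalled barcodes at the shallow end. Neuron-labelled nuclei outside the subset held 11 to 17.4 neuronal UMIs between 500 and 1499 UMIs, and neuron-subset nuclei rose from 31.6 (male) and 24.5 (female) UMIs at 500 to 749 UMIs to 559 and 789 from 5000 UMIs.

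The content of a mean deeper uncalled barcode was subtracted from each class. Such a barcode was as large as 27.2% (male) and 25.4% (female) of a mean neuron-labelled nucleus outside the subset, and 4.81% and 3.18% of a mean neuron-subset nucleus, so the same amount took a larger part of the shallower nuclei by construction. After its content was subtracted, the neuronal list went from 16016 to 4204 CPM (male) and from 12925 to 3042 CPM (female). Micro-PVM nuclei came to 2614 and 2396 CPM, and neuron-subset nuclei, at 68471 and 62792 CPM before it, to 69525 and 63477 CPM. The subtraction assumes that each nucleus carries as much free RNA as a mean uncalled barcode, and that assumption was not tested. The part that free RNA had in the neuron label was not tested either.

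Genes of the microglia list pointed the other way. The list held 20 genes, among them Cx3cr1 (the fractalkine receptor), Csf1r (the receptor that microglia need to survive), Inpp5d (a phosphatase of immune receptor signalling) and P2ry12 (a purine receptor of resting microglia). Its sum in the neuron-labelled nuclei outside the subset was 5930 (male) and 6369 (female) CPM, 6150 ± 310 (SD, n = 2 libraries). Neuron-subset nuclei held 586 and 951 CPM, so the level outside the subset was 10.1 and 6.70 times theirs. Micro-PVM nuclei held 9167 and 8546 CPM. Deeper uncalled barcodes held 3136 and 4284 CPM, and 0.670 and 1.30 UMIs per barcode, against 4.66 and 7.61 UMIs per neuron-labelled nucleus outside the subset.

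Excitatory and inhibitory genes lay between the Micro-PVM nuclei and the neuron subset in both libraries. Excitatory genes summed to 955 and 628 CPM outside the subset, against 1702 and 1365 CPM in the neuron subset, 616 and 326 CPM in Micro-PVM nuclei and 1685 and 1320 CPM in deeper uncalled barcodes. Inhibitory genes, among them the GABA-synthesising enzyme Gad2, summed to 472 and 374 CPM outside the subset, against 1029 and 1090 CPM in it and 181 and 165 CPM in Micro-PVM nuclei. Genes of activated microglia, such as Apoe, summed to 3035 and 2301 CPM outside the subset, 236 and 182 CPM in it and 2689 and 2991 CPM in Micro-PVM nuclei. Astrocyte genes reached 632 and 622 CPM and oligodendrocyte genes 450 and 446 CPM outside the subset. Vascular genes reached 175 and 38.5 CPM, against 21.6 and 24.1 CPM in the neuron subset and 49.7 and 24.6 CPM in Micro-PVM nuclei.

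**Figure D4:**
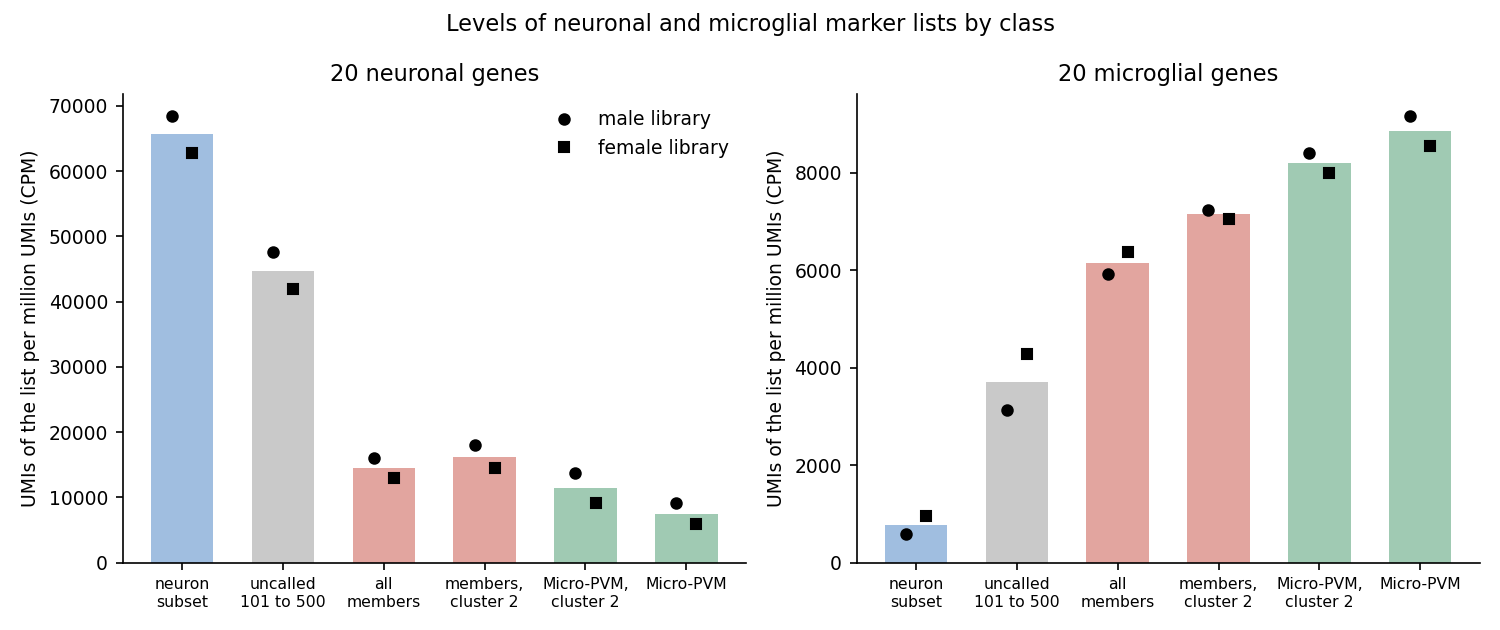
Summed CPM of the 20 neuronal genes (left) and the 20 microglial genes (right) in each class, with bars from 0 at the mean of the libraries, circles for the male and squares for the female library, and "members" for the neuron-labelled nuclei outside the neuron subset. These nuclei lie below the neuron subset for the neuronal list (16016 and 12925 against 68471 and 62792 CPM) and above it for the microglial list (5930 and 6369 against 586 and 951 CPM).

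The UMIs of each class were summed per library and compared with edgeR's quasi-likelihood test, adjusted by Benjamini-Hochberg over 12325 genes, and a gene was called at an adjusted p under 0.05. Each class had 2 sums, so an exact permutation test of a single value could not go below p = 0.333. The p-values measure the spread between 2 pooled libraries, and labels and clusters came from the same counts, so the calls describe classes that those genes helped to define. Where a library is said to be left out, only its sum of the neuron-labelled nuclei outside the subset was dropped. The other classes kept both libraries in those fits.

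Against the neuron subset, these nuclei were lower in neuronal genes and higher in microglial genes. Over all genes tested, 2114 (17.2%) were called higher and 2163 (17.5%) lower in the neuron-labelled nuclei outside the subset, with a median log2 fold change of -0.05. With either library's sum of these nuclei left out, fewer genes were called in each direction than with both. Of the 20 general neuronal genes, 18 were lower and none higher, with a median log2 fold change of -2.18. Excitatory genes were lower for 6 of 10 tested, and inhibitory genes for 7 of 8. Microglial genes were higher for 19 of 20, with a median of 4.18, and genes of activated microglia for 13 of 14. Astrocyte and oligodendrocyte genes were each higher for 5 of 10 tested, and vascular genes for 1 of 5.

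Neuron-subset nuclei no deeper than the 90th percentile of these nuclei gave fewer calls. These 81 male and 104 female nuclei had means of 811 and 1101 UMIs, against 786 and 1195 UMIs outside the subset. Of 7979 genes tested, 787 (9.86%) were then higher and 518 (6.49%) lower outside the subset, with a median log2 fold change of 0.21. Neuronal genes kept their direction, with 17 of 19 lower (median -1.36), and microglial genes were higher for 14 of 19 (median 2.60). Fewer glial and vascular genes were then called higher, and some were called lower. Of 5 astrocyte genes 1 was higher and 2 were lower, of 6 oligodendrocyte genes 1 was higher, and of 3 vascular genes 2 were lower and none higher. Inhibitory genes were lower for 1 of 5.

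Single neuronal genes showed the size of the gap. Snap25 (chr2:136713453-136782428, plus strand, GRCm38), a protein-coding gene, measured 314 (male) and 215 (female) CPM outside the subset, against 1008 and 866 CPM in the neuron subset. Its log2 fold change was -2.10 ± 0.229 (SE, adjusted p = 9.36e-06). Rbfox1 measured 2675 and 2312 CPM outside the subset and was lower than in it, with a log2 fold change of -2.74 ± 0.257 (adjusted p = 2.92e-06). Meg3 was at 2491 and 1448 CPM, also lower (-2.94 ± 0.335, adjusted p = 1.38e-05). Each of these 3 genes was lower outside the subset than in it in both libraries. Gad2 rested on 4 male and 2 female UMIs outside the subset, at 12.1 and 11 CPM against 91.6 and 97.3 CPM (-3.34 ± 0.448, adjusted p = 5.47e-05).

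Single microglial genes ran in the opposite direction. Cx3cr1 (chr9:119901616-120069879, minus strand, GRCm38), also protein-coding, measured 369 (male) and 209 (female) CPM outside the subset, against 17.5 and 11.5 CPM in the neuron subset. Its log2 fold change was 4.07 ± 0.263 (adjusted p = 1.33e-07). Csf1r was at 308 and 193 CPM against 17.5 and 10.7 CPM (3.91 ± 0.253, adjusted p = 1.33e-07). Inpp5d was at 892 and 633 CPM against 26.9 and 22.7 CPM (4.65 ± 0.246, adjusted p = 4.68e-08). Each of these genes was higher outside the subset than in it in both libraries. Apoe, a lipid carrier of activated microglia and astrocytes, was at 792 and 633 CPM against 36.1 and 23.6 CPM (4.31 ± 0.235, adjusted p = 5.3e-08).

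**Figure D5:**
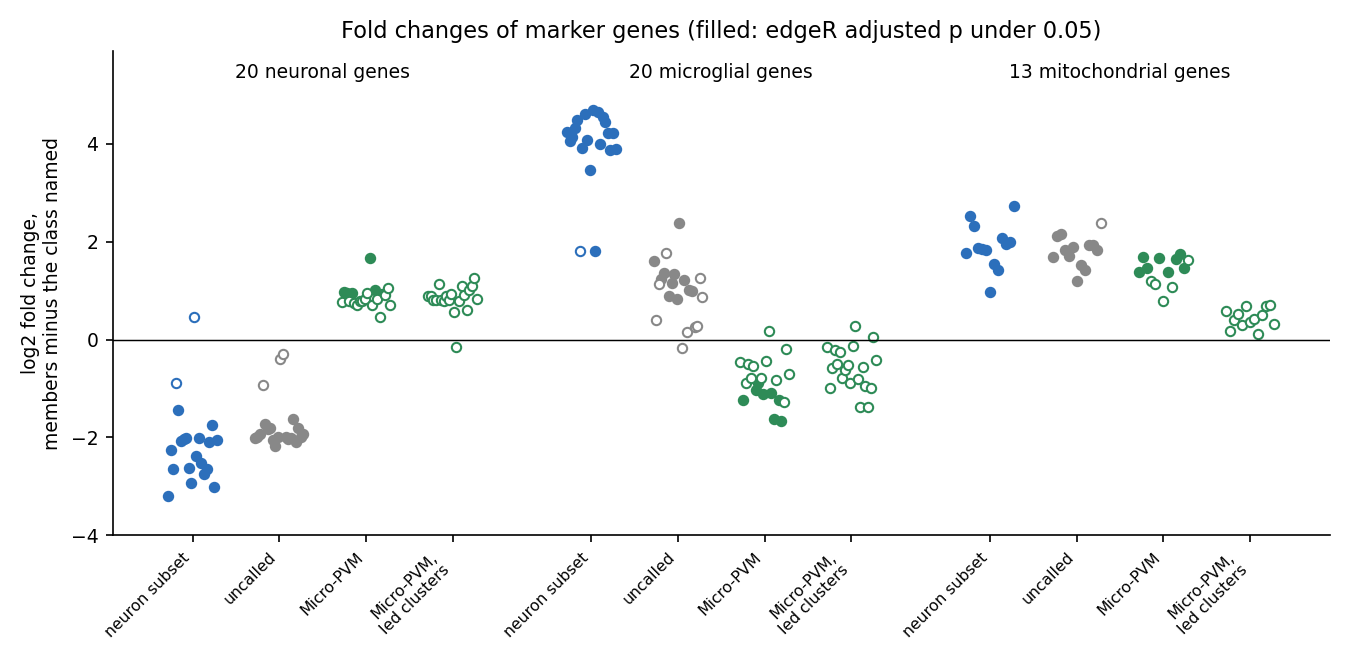
Log2 fold change (vertical axis) of each neuronal, microglial and mitochondrial gene in the neuron-labelled nuclei outside the subset ("members") against the neuron subset, the deeper uncalled barcodes and Micro-PVM nuclei, the last also for the nuclei of Micro-PVM-led clusters alone. Each point is a gene, filled where it was called at an adjusted p under 0.05, and the microglial genes have medians of 4.18 against the neuron subset and -0.85 against Micro-PVM nuclei.

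Genes of the neuronal injury response followed the neuronal genes. The list held Atf3, Sox11 (a developmental transcription factor switched on again after axon injury), Gap43 (a growth cone protein), Ecel1 (a peptidase induced by nerve injury) and others, and 13 of its 16 genes were tested. Of these, 11 were lower than in the neuron subset and none was higher. The summed list was at 499 and 352 CPM, against 1916 and 1926 CPM in the neuron subset and 363 and 262 CPM in Micro-PVM nuclei. Ecel1 measured 51.4 and 38.5 CPM against 267 and 380 CPM in the neuron subset (log2 fold change -3.14 ± 0.380, adjusted p = 2.32e-05). Sox11 measured 42.3 and 33.0 CPM against 278 and 251 CPM (-3.09 ± 0.269, adjusted p = 1.68e-06), and Gap43 78.6 and 55.1 CPM against 448 and 439 CPM (-3.00 ± 0.291, adjusted p = 3.69e-06). Each of the 3 was below the neuron subset in both libraries.

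Atf3, the gene that drives the Cre allele, was counted at 14 male and 3 female UMIs in the neuron-labelled nuclei outside the subset, or 42.3 and 16.5 CPM. The neuron subset held 104 and 169 CPM, and the difference had a log2 fold change of -2.42 ± 0.504 (adjusted p = 0.00195). Micro-PVM nuclei held 26.5 and 35.9 CPM. The GFP sequence was found in 0.95% (4 male) and 0.658% (1 female) of neuron-labelled nuclei outside the subset, in 2.32% and 8.74% of the neuron subset and in 0.710% and 2.10% of Micro-PVM nuclei. Relative to all UMIs it was at 12.1 and 5.50 CPM outside the subset, 5.88 and 10.7 CPM in it and 4.81 and 6.59 CPM in Micro-PVM nuclei. With 4 and 1 UMIs outside the subset, the Poisson intervals of 3.29 to 31.0 CPM (male) and 0.139 to 30.7 CPM (female) covered the levels of both other classes.

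Nuclear noncoding RNAs did not move as 1 group. Of 7 tested, 5 were lower and 2 higher than in the neuron subset. Malat1, an abundant RNA retained in nuclei, was at 20734 and 21816 CPM against 88449 and 100374 CPM in the neuron subset (log2 fold change -2.43 ± 0.331, adjusted p = 6.24e-05). Neat1, the scaffold RNA of paraspeckles, was at 967 and 666 CPM against 97.7 and 90.6 CPM (2.82 ± 0.211, adjusted p = 4.63e-07). Gm42418, an RNA that overlaps ribosomal RNA sequence, took 145638 and 272310 CPM against 40268 and 90002 CPM (1.40 ± 0.507, adjusted p = 0.0463). Gm42418 was higher outside the subset in both libraries, but its call was lost when either library was left out.

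The difference in mitochondrial transcripts depended on which nuclei entered. All 13 mitochondrial genes were called higher than in the neuron subset, with summed levels of 8532 and 12997 CPM against 3640 and 1374 CPM. Against neuron-subset nuclei no deeper than the 90th percentile of these nuclei, which held 8766 and 6710 CPM, 1 of the 13 was called higher (median log2 fold change 0.69). For the 526 nuclei of Micro-PVM-led clusters, 6 of the 13 were called higher than in the neuron subset (median 0.98), where 15.1% of all genes tested were called higher and 18.1% lower. The 18 nuclei of cluster 21 carried 33.5% (male) and 63.7% (female) of the mitochondrial UMIs of all these nuclei. For mt-Co1, a subunit of cytochrome c oxidase, the log2 fold change against the whole subset was 2.33 ± 0.421 (adjusted p = 0.000672). The median mitochondrial share per nucleus was 0.336% and 0.323%, against 0.154% and 0.0681% in the neuron subset and 0.168% and 0.131% in Micro-PVM nuclei. Above 5% lay 10 male and 8 female nuclei, although the methods state that nuclei over 5% were removed. The means were 0.735% and 0.920%. Neuron-labelled nuclei of cluster 21 had medians of 5.85% and 6.68%, and those of cluster 18 had 2.10% and 2.77%.

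The genes with the largest folds against the neuron subset came from a small number of nuclei. The 10 genes with the largest increase were Ceacam1, C230072F16Rik, Ccdc190, Zfp474, Ttc29, Gm47731, Efhb, Ttll8, Ccdc153 and Gm16499. Together they held 208 UMIs, of which 92.8% lay in clusters 15 and 21, and 8 of the 10 genes had most of their UMIs there. Ceacam1 (3 male and 2 female UMIs) and Gm47731 (2 and 1) were the exceptions. The 10 genes with the largest decrease were Htr2a (a serotonin receptor), Bace1 (the beta-secretase), Xirp2, Kcnk3 (a potassium leak channel), Tmem40, Zfp9, Gm16178, Gdap1 (a mitochondrial protein of neurons), Dlx6os1 (a noncoding RNA of inhibitory neurons) and Scrt2 (a neuronal transcription factor). All 10 had 0 UMIs in the neuron-labelled nuclei outside the subset in both libraries, which allows up to 3 UMIs, or 9.07 (male) and 16.5 (female) CPM. The neuron subset held between 117 and 367 male UMIs and between 225 and 645 female UMIs. Its totals were far larger, 6122500 and 11496181 UMIs against 330855 and 181657. The neuron-subset levels of the 10 genes were 19.1 to 59.9 CPM (male) and 19.6 to 56.1 CPM (female). These lay above the limits, the lowest female level only by little.

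Against Micro-PVM nuclei the differences were smaller. Among 12325 genes, 717 (5.82%) were higher and 289 (2.34%) lower in the neuron-labelled nuclei outside the subset. With library as a block, which pairs the classes within each library, the counts were 1067 and 751 of the same 12325 genes. With either library's sum of these nuclei left out, fewer genes were called in each direction than with both. Limiting all classes to nuclei within 5% mitochondrial UMIs and 6000 genes gave 460 higher. Of the 20 general neuronal genes, 6 were higher and none lower (median log2 fold change 0.83), and with the block 17 were higher. Of the 20 microglial genes, 8 were lower and none higher (median -0.85), and with the block 13 were lower. None of 14 activated-microglia genes and none of 13 injury response genes was called. Excitatory genes were higher for 2 of 10 tested, inhibitory for 1 of 8 and astrocyte for 3 of 10. Oligodendrocyte genes were higher for 1 of 10 and nuclear noncoding RNAs for 3 of 7. Mitochondrial genes were higher for 8 of 13, and for 13 of 13 with the block.

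Snap25 was at 314 and 215 CPM in the neuron-labelled nuclei outside the subset and at 160 and 105 CPM in Micro-PVM nuclei, and was called higher (log2 fold change 0.93 ± 0.229, adjusted p = 0.0255). Nrxn3 was at 2566 and 2428 CPM against 1449 and 899 CPM (1.02 ± 0.251, adjusted p = 0.0255). Both calls were lost when either library was left out. Cx3cr1 was at 369 and 209 CPM against 565 and 389 CPM and was not called (-0.79 ± 0.233, adjusted p = 0.054), but with the block it was lower (-0.81 ± 0.187, adjusted p = 0.00115). The male level outside the subset was close to the female level in Micro-PVM nuclei. Inpp5d was at 892 and 633 CPM against 1519 and 1500 CPM and was lower (-1.09 ± 0.214, adjusted p = 0.00715), a call lost without the female library. P2ry12 was at 109 and 71.6 CPM against 302 and 232 CPM (-1.63 ± 0.252, adjusted p = 0.0015). Siglech, a lectin of microglia, was at 121 and 60.5 CPM against 376 and 198 CPM (-1.68 ± 0.317, adjusted p = 0.00581), and was not called without the female library.

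The calls against Micro-PVM nuclei depended on which nuclei entered. When the 526 nuclei of Micro-PVM-led clusters were used alone, edgeR's quasi-likelihood test called 0 of 12249 genes higher (0%) and 0 lower (0%), with 1647 genes at an unadjusted p under 0.05. DESeq2 called 277 higher and 85 lower in the same nuclei, and edgeR with the library block called 222 higher and 214 lower. The median log2 fold changes were 0.85 for the neuronal list, -0.57 for the microglial list and 0.43 for the mitochondrial list. With the block, 16 neuronal genes were higher, 7 microglial genes lower and 0 mitochondrial genes called. Without the block Snap25 had a log2 fold change of 1.02 (adjusted p = 0.122), and with it Snap25 was higher (adjusted p = 0.00396). P2ry12 stood at -1.38 (adjusted p = 0.122) and was lower with the block (adjusted p = 0.00051). For mt-Co1 it was 0.41 (adjusted p = 0.652), and 0.419 was the adjusted p with the block. In all the neuron-labelled nuclei outside the subset, mt-Co1 had given 1.46 ± 0.410 (adjusted p = 0.0453), a call lost when either library was left out.

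Limiting the Micro-PVM nuclei to those no deeper than the 90th percentile of the neuron-labelled ones narrowed the neuronal difference. The limited Micro-PVM nuclei, 549 male and 406 female, still had more UMIs, with means of 867 and 1569 against 786 and 1195. Of 8803 genes tested, 238 (2.7%) were then higher and 102 (1.16%) lower in the neuron-labelled nuclei outside the subset. Of the neuronal genes, 0 of 19 tested were called, with a median log2 fold change of 0.31. For Snap25 it was 0.29 (adjusted p = 0.538). Microglial genes were lower for 9 of 19 (median -0.93), and mitochondrial genes were higher for 3 of 13.

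Cluster 2 allowed the comparison within 1 cluster. Its neuron-labelled nuclei held 17984 (male) and 14495 (female) CPM of the neuronal list, against 13781 and 9166 CPM in its Micro-PVM nuclei. In UMIs per nucleus the order was the reverse, 12.1 and 14.5 against 14.1 and 18.4. The microglial list stood at 7229 and 7058 CPM against 8413 and 7996 CPM, or 4.87 and 7.04 against 8.61 and 16 UMIs per nucleus. Median depth was 618 and 870 UMIs against 945 and 1961. Of 8551 genes tested within the cluster, edgeR's quasi-likelihood test called 0 higher (0%) and 0 lower (0%), with 532 at an unadjusted p under 0.05. DESeq2 called 0 as well (414 at an unadjusted p under 0.05), as did edgeR with the block (670). The neuron-labelled nuclei of the cluster summed to only 136680 and 126669 UMIs. List medians were a log2 fold change of 0.48 (neuronal) and -0.36 (microglial). In simulated data with the larger sums of the whole classes, 5.73% of genes changed by a log2 of 1 were recovered. The lack of calls therefore does not show that the neuron-labelled and Micro-PVM nuclei of the cluster were alike. Snap25 had a log2 fold change of 0.34 within the cluster (adjusted p = 0.847) and Cx3cr1 one of -0.24 (adjusted p = 0.918).

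Empty droplets differed from the neuron-labelled nuclei outside the subset in both neuronal and microglial genes. Against barcodes of 1 to 50 UMIs, 816 genes (6.62%) were higher and 738 (5.99%) lower in the nuclei, and with the block 1381 and 1176. With either library's sum of these nuclei left out, fewer genes were called in each direction than with both. Barcodes of 21 to 100 UMIs gave 139 and 129. Of the 20 neuronal genes 17 were lower (median log2 fold change -1.21), and of the 20 microglial genes 8 were higher (median 0.78). Injury response genes were lower for 6 of 13 and higher for 1. Mitochondrial genes were higher for 2 of 13 (median 0.09), and their sum in these barcodes was 10795 and 12564 CPM, against 8532 and 12997 CPM in the nuclei. Snap25, at 701 and 623 CPM in these barcodes, was lower in the nuclei (-1.09 ± 0.229, adjusted p = 0.0086). Meg3 was lower as well (-2.11 ± 0.325, adjusted p = 0.00227). Cx3cr1 was at 126 and 114 CPM in these barcodes and higher in the nuclei (1.5 ± 0.256, adjusted p = 0.00321), whereas Csf1r was not called (0.53 ± 0.238, adjusted p = 0.166). The call of Snap25 was lost without the female library and that of Cx3cr1 without the male library.

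Against the deeper uncalled barcodes, neuronal genes were lower and microglial genes higher in these nuclei. Of 15247 genes tested, 1184 (7.77%) were higher and 1836 (12%) lower in the neuron-labelled nuclei outside the subset. Neuronal genes were lower for 17 of 20 (median log2 fold change -1.96), and Snap25, at 945 and 835 CPM in those barcodes, was lower by -2.09 ± 0.194 (adjusted p = 8.64e-05). Microglial genes were higher for 11 of 20 (median 1.07) and genes of activated microglia for 8 of 14. Cx3cr1 was at 94.9 and 87.1 CPM in those barcodes, below both libraries of nuclei (1.33 ± 0.223, adjusted p = 0.00204), and Inpp5d at 265 and 248 CPM (1.21 ± 0.158, adjusted p = 0.000458). Mitochondrial genes were higher for 12 of 13, with 2386 and 2436 CPM in those barcodes, unlike against the barcodes of 1 to 50 UMIs. Of 14 oligodendrocyte genes tested, 1 was higher, 2 were lower and 11 were not called (median -0.98). The 1 higher was Cspg4, a proteoglycan known from oligodendrocyte precursors and pericytes. Cspg4 was at 54.4 and 60.5 CPM in the nuclei and 5.26 and 5.56 CPM in those barcodes (3.01 ± 0.347, adjusted p = 0.00023). Its level in Micro-PVM nuclei was 42.1 and 45.6 CPM, from 105 and 367 UMIs.

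Shares of nuclei with a UMI were compared after every nucleus was thinned at random to 500 UMIs. A UMI of any microglial gene was found in 91.4% of male neuron-labelled nuclei outside the subset (88.4 to 93.9) and 95.4% of female ones (90.7 to 98.1). Micro-PVM nuclei reached 98.9% and 98.6%, and neuron-subset nuclei 27.7% and 44.3%. The shares of these nuclei and of Micro-PVM nuclei lay near the upper limit of this measure, where it separates classes poorly. Cx3cr1 was found in 20.2% (16.5 to 24.3) and 11.2% (6.65 to 17.3), against 24.7% and 18.9% of Micro-PVM nuclei and 1.23% and 0.915% of the neuron subset. Snap25 was found in 14.7% (11.5 to 18.5) and 13.2% (8.23 to 19.6), against 34.6% and 30.4% of the neuron subset and 8.58% and 5.73% of Micro-PVM nuclei.

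Without thinning, the share with Snap25 was not higher than in Micro-PVM nuclei in both libraries. It was found in 21.6% and 23.7% of neuron-labelled nuclei outside the subset and in 20.6% and 29.9% of Micro-PVM nuclei, and in 82.7% and 87.6% of the neuron subset. Unthinned Cx3cr1 was found in 24.0% and 19.1%, against 51.1% and 60.8% and 5.95% and 7.90%. In 500 UMIs a neuron-labelled nucleus outside the subset held on average 8.16 and 7.23 UMIs of the neuronal list, a Micro-PVM nucleus 5.00 and 3.38, and a neuron-subset nucleus 32.8 and 29.0. Uncalled barcodes could be included only at 150 UMIs. There, Snap25 was found in 13.1% and 11.7% of uncalled barcodes of up to 500 UMIs and in 4.04% and 2.63% of the neuron-labelled nuclei outside the subset. At that depth the Snap25 share in these nuclei lay below that of barcodes without a called nucleus, and at 500 UMIs above that of Micro-PVM nuclei. How much of it was free RNA was not tested. Cx3cr1 stood at 1.32% and 1.28% in those barcodes and at 4.75% and 4.61% in the nuclei.

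Clusters 15 and 21 held nuclei of different gene content that also carried a cortical neuron label. They contained 7.13% of the male and 7.24% of the female neuron-labelled nuclei outside the subset, and 15.6% and 15.9% of the UMIs. SMC-Peri was the leading label of both clusters. Among the 16 vascular genes, 7 had a UMI in all male and 4 in all female neuron-labelled nuclei outside the subset (58 and 7 UMIs). Cldn5, Ly6c1, Rgs5, Acta2, Pdgfrb and Lum had 0 UMIs in these nuclei in both libraries. A count of 0 allows up to 3 UMIs, or 9.07 (male) and 16.5 (female) CPM. For clusters 15 and 21 alone, with 51629 and 28868 UMIs, that limit was higher. Of the 16 vascular genes, 2 had a UMI in the male and 1 in the female nuclei of cluster 15 (39 and 1 UMIs), and 1 had any in those of cluster 21 (4 and 2 UMIs). Mecom, a transcription factor on the vascular list, was the 1 vascular gene called against Micro-PVM nuclei. It was at 127 and 16.5 CPM against 5.21 and 0.746 CPM (log2 fold change 5.02 ± 0.838, adjusted p = 0.00263), with 35 of its 42 male UMIs in cluster 15. Outside clusters 15 and 21, Mecom had 3 male and 0 female UMIs, and in the nuclei of Micro-PVM-led clusters its log2 fold change was 1.51 (adjusted p = 0.705). Cux2, a factor of upper-layer neurons and 1 of the 2 excitatory genes called higher, had 15 of its 26 male and 5 of its 10 female UMIs in cluster 15. It was at 78.6 and 55.1 CPM against 26.5 and 17.2 CPM (1.58 ± 0.288, adjusted p = 0.00458), and in the nuclei of Micro-PVM-led clusters its log2 fold change was 0.31 (adjusted p = 0.775). Neither Mecom nor Cux2 was called against Micro-PVM nuclei when the male library was left out.

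The 18 nuclei of cluster 21, 9 in each library, carried genes of motile cilia. A set of 12 such genes, chosen after the values were seen and therefore given without a test, comprised Dnah12 and Dnah6 (axonemal dyneins), Hydin and Spag17 (central pair proteins), Tmem212, Efhb, Ttc29, Ccdc153, Ttll8, Rp1, Cfap161 and Trp73 (a transcription factor of the ciliary programme). The set summed to 165 (male) and 225 (female) UMIs, or 8732 and 9182 CPM, and all 9 nuclei of each library held at least 1. The other nuclei of cluster 21 held 10666 and 11229 CPM of the set. The neuron-labelled nuclei outside clusters 15 and 21 held 4 and 19 UMIs, or 14.3 and 124 CPM. Part of the set was also counted in the neuron-labelled nuclei of cluster 15. There, Dnah6 had 28 male UMIs (855 CPM, in 14 of 21 nuclei) and 1 female UMI. Efhb had 5 male UMIs and Hydin 4, whereas Dnah12, Spag17 and Tmem212 had 0 in both libraries. Of the Trp73 UMIs, 9 lay in cluster 15 and 10 in cluster 21. Mitochondrial genes took 50013 and 61334 CPM in the 18 nuclei.

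The 23 nuclei of cluster 15, 21 male and 2 female, were led by Htr2c (a serotonin receptor), Otx2os1, Ttr (transthyretin, a carrier of thyroid hormone and retinol), Enpp2 (which makes lysophosphatidic acid), Trpm3 (a cation channel) and Prdm16 (a transcriptional regulator). These 6 genes, also chosen after the values were seen, summed to 51689 and 37130 CPM, and each of the 23 nuclei held at least 1 of their UMIs. The other nuclei of the cluster held 61564 and 57682 CPM, and the neuron-labelled nuclei outside clusters 15 and 21 held 548 and 190 CPM. Median depth in cluster 15 was 1595 and 2181.5 UMIs, and in cluster 21 it was 1939 and 2395, above the medians of 664 and 884 UMIs elsewhere. The microglial list summed to 916 and 2980 CPM in cluster 15 and to 794 and 2326 CPM in cluster 21.

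The leading genes against Micro-PVM nuclei came from these clusters. The 10 genes with the largest increase were Trp73, Gm867, Rp1, Col6a5, Cfap161, Efhb, Maats1, Ccdc190, Iqca and Col8a2. Together they held 148 UMIs, 95.9% of them in clusters 15 and 21, and all 10 genes had most of their UMIs there. The 10 genes with the largest decrease were Asb2, Nab2, Mki67 (a marker of dividing cells), Mmadhc, Rwdd4a, 4732440D04Rik, Hacd4, Itgb3 (an integrin), Gm10521 and Zfp53. The first 6 had 0 UMIs in the neuron-labelled nuclei outside the subset in both libraries, and the other 4 had 1 male and 0 female UMIs each. Mki67 was counted at 30 male and 107 female UMIs in Micro-PVM nuclei. A count of 0 in the neuron-labelled nuclei outside the subset allows up to 3 UMIs per library, or 9.07 (male) and 16.5 (female) CPM. In Micro-PVM nuclei the first 6 genes were at 11.2 to 20.1 CPM (male), above that limit. Their female levels of 10.1 to 13.3 CPM lay below it, so the female counts of 0 cannot show a difference.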

How the data were processed

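The authors counted UMIs with CellRanger against a pre-mRNA version of GRCm38 and deposited the raw counts per gene and barcode. The deposited table of nuclei gave the UMI count, the mitochondrial percent, the cluster and the labels (other) from Seurat, and SCTransform totals, which are a score and were not used. Columns of other series numbered 0.

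UMIs were summed per library and class and fitted with edgeR 4.0.16 in R 4.3.3 (TMM, filterByExpr, quasi-likelihood test, 8 sums, Benjamini-Hochberg). DESeq2 1.42.0 was an alternative. CPM were of the summed nuclei. Intervals were Clopper-Pearson or exact Poisson at 95%. Thinning drew UMIs without replacement (seed 1). No doublet caller was run and no nucleus was removed as a doublet. Gene coordinates came from GENCODE. The test was tested on simulated data, where 55.9% of changed genes at a log2 change of 2 and 5.73% at 1 were recovered for these nuclei against neuron-subset nuclei. The changed genes tested numbered 188 and 192. Besides these, 17 unchanged genes were called at a log2 change of 2 and 1 unchanged gene at 1.

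Classes of 1 library come from the same pool, and the deviations of same-library sums correlated (r 0.164 to 0.467). Genes named were those of the fixed lists and the 10 with the largest folds each way, called and changed alike in both libraries. The nuclei described and the lists were chosen with earlier results of these data known. Clec7a and Rian were not found under these names in the gene tables used here. The deeper uncalled barcodes, thinning to 150 UMIs, cluster-limited comparisons, the subtraction and the gene sets of clusters 15 and 21 were chosen after the data were seen. Values of some listed genes are not reported here.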

Additional observations from a re-analysis of the deposited data

Results flagged for a closer look

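The deeper uncalled barcodes (over 100 and up to 500 UMIs), which enter none of the planned comparisons, held 10.2 UMIs of the neuronal list per barcode (male) and 12.7 (female). These are signals in data outside the main measurement. Neuron-labelled nuclei outside the subset held 12.6 and 15.4 UMIs of the same genes per nucleus.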

How the results depend on the processing

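Of 32 gene folds, 17 kept direction and lost no call in any planned setting that tested them. A call gained was not counted against a fold, and 0 reversed in any alternative run. Limited to nuclei no deeper than the 90th percentile of the neuron-labelled ones, the neuron subset gave 787 genes higher and 518 lower, and Micro-PVM nuclei, still deeper on average, 238 and 102. Limiting mitochondrial share and genes gave 460 higher against Micro-PVM nuclei, and no filter on low counts gave 499 lower. Barcodes of 21 to 100 UMIs gave 139 higher and 129 lower, and the deeper uncalled barcodes, with over 100 and up to 500, gave 1836 lower. Against Micro-PVM nuclei, the nuclei of Micro-PVM-led clusters gave 0 and 0 genes with edgeR's quasi-likelihood test (1647 at an unadjusted p under 0.05), 277 and 85 with DESeq2, and 222 higher with the block. Cluster 2 gave 0 in every fit, from small sums that limit what can be called.

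With library as a replicate block, which pairs classes within a library, 751 genes were lower than in Micro-PVM nuclei, and 1381 were higher and 1176 lower than in empty droplets. Of the 32 gene folds, the block changed the call of Cx3cr1 against Micro-PVM nuclei and of no other. Leaving out 1 library gave 1112 to 1751 genes higher and 1524 to 1696 lower against the neuron subset, 273 to 330 and 26 to 104 against Micro-PVM nuclei, and 198 to 431 and 253 to 278 against empty droplets. The lone library of a class was then assumed to vary like the other classes.

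The neuronal list came to 3623 CPM after subtraction. The microglial list came to 6808 CPM as a mean over nuclei, 7014 CPM in Micro-PVM-led clusters and 7027 CPM after subtraction. Thinning to 300 and 150 UMIs gave 85.3% and 62% for the microglial list, 8.41% and 4.68% for Cx3cr1, and 7.29% and 3.33% for Snap25, which reached 18.7% at 800 UMIs. Other causes of these shifts were not tested. Few UMIs limit what the sums of these nuclei can show, and 1 library for each sex limits any statement on sex.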
